A study of Homo sapiens with 12 samples.

Results

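The 10 genes described here, PMEPA1, TGFB1, TGFB2, TGFBR1, SMAD3, SMAD6, SMAD7, SKIL, INHBA and FST, carry, transduce or dampen signals of the TGF-beta superfamily. They were picked by name out of the 38611 genes in the tables, with earlier results of these same libraries in view. Their levels and the differences between groups are therefore given as a description, without a test. Tests are kept for 94 other genes of the superfamily and for marker genes of cell types. These lists and tests were also chosen with earlier results in view, and their p-values do not allow for that choice. RNA was sequenced from 4 groups of 3 libraries each: docetaxel-resistant PC3, parental PC3, docetaxel-resistant DU145 and parental DU145. PC3 and DU145 are established human prostate cancer lines, grown here in DMEM with fetal bovine serum, and docetaxel is a taxane that stabilises microtubules. The resistant sublines were selected by raising docetaxel in steps, starting at 0.5 for PC3 and 10 for DU145, until the IC50 reached 15 for PC3 and 1800 for DU145, in "nm/ml" as the submitters write it. Each line is represented by 1 resistant subline, and the labels do not say whether it is a clone, whether docetaxel was present at harvest, or whether the 3 libraries came from separate cultures. The spread between libraries may therefore be technical, and the p-values below measure only that spread.

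TGF-beta and activin ligands assemble a complex of type II and type I receptors, and the type I receptor, TGFBR1 in the case of TGF-beta, phosphorylates SMAD2 and SMAD3. These join SMAD4, enter the nucleus and switch on target genes, among them genes whose products restrain the same pathway. SMAD6 and SMAD7 act at the receptors and on SMADs, SKIL represses SMAD-bound genes, PMEPA1 keeps SMAD2 and SMAD3 away from the receptor complex, and follistatin, the product of FST, binds activins outside the cell. In prostate epithelium TGF-beta is known as a growth inhibitor whose restraint is often lost in carcinoma.

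Promoter sequence is shown for 3 inhibitors that were lower together in resistant PC3 (PMEPA1, SMAD6 and SMAD7) and for INHBA, which was higher there. RefSeq promoter windows on GRCh38.p14 were found for 10 of the 10 genes, 26 windows in all, and the 250 bases before each start site were searched on both strands. Capitals mark CAGAC or its reverse complement GTCTG, the core element that SMAD3 and SMAD4 bind, and the palindrome GTCTAGAC, in which the letters of neither core occur. For PMEPA1, SMAD7 and INHBA the longest stretch before a start site that holds no exon of the gene is printed. PMEPA1 and SMAD7 have 2 such stretches of 250 bases each, and the more upstream one is shown. The stretches printed for PMEPA1, SMAD7 and INHBA lie inside the span of the gene, before internal start sites. The first 30 bases after the start occur in 0 GENCODE 29 transcripts of PMEPA1, 1 of SMAD7 and 1 of INHBA. For SMAD6 the 30 bases before the start site are printed, because they hold the palindrome, whose last bases lie in a GENCODE 29 exon of the gene. All are written 5′ to 3′ on the strand of the gene: chr20:57710016-57710265 (minus strand) for PMEPA1, chr15:66702206-66702235 (plus strand) for SMAD6, chr18:48949334-48949583 (minus strand) for SMAD7 and chr7:41703109-41703340 (minus strand) for INHBA.
PMEPA1: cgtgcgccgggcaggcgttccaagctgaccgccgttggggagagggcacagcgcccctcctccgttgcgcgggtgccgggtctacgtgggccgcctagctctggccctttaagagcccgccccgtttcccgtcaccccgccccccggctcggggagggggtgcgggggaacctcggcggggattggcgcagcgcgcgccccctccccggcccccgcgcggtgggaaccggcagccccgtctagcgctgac
SMAD6: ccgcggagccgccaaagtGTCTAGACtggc
SMAD7: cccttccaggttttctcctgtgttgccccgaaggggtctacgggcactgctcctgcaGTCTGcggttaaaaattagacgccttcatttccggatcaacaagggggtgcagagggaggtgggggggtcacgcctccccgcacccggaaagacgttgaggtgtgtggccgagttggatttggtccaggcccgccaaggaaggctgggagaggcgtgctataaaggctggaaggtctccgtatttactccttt
INHBA: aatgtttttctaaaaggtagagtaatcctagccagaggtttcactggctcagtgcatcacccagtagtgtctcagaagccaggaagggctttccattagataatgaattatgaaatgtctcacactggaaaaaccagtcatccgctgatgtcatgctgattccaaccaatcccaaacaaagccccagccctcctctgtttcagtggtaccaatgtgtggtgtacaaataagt
The palindrome lay in 1 of the 26 windows, that of SMAD6, where its first base is 12 bases before the start site, and in 0.182% of all 35116 windows in the table. CAGAC or GTCTG was present in 12 of the 26 windows, belonging to 6 of the 10 genes, against 38.0% of all windows. Windows of a gene can overlap, as chr9:99104833-99105082 and chr9:99104863-99105112 of TGFBR1 do, so a match can count more than once. The share is per window, so the number of genes is not set against it. GGCGCC, a core that SMAD1 and SMAD5 can bind, was in 4 of the 26 windows and in 16.4% of all. The printed PMEPA1 and INHBA stretches hold none of the first 2 motifs and the SMAD7 stretch holds 1 GTCTG. Of the equally long stretches not printed, that of PMEPA1 holds 1 CAGAC and that of SMAD7 holds 0. Windows that overlap an exon of the gene were not printed either. Of these, chr18:48950966-48951215 of SMAD7 holds 2 CAGAC. For PMEPA1, chr20:57710578-57710827 holds 1 and chr20:57711473-57711722 holds 0. These are matches of letters, and no binding was measured.

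Library totals lay between 62513103 and 72530254 counts, and 24128 genes passed the filter on low counts, the 10 members among them. Levels below are counts scaled to a library total of 1e6 (CPM), which compare 1 gene between libraries. Where genes are compared with each other, the length-scaled FPKM values are used. Within resistant PC3 the first library stood apart: chi-square per gene was 37.1 and 37.2 between it and the other two, and 17.9 between those. CTNNA1, a catenin gene known to be deleted in PC3, averaged 2.23 and 2.91 CPM in resistant and parental PC3, against 383 and 519 CPM in resistant and parental DU145. Epithelial markers (EPCAM, KRT8, KRT18, KRT19 and CDH1, all 5 detected in every group) summed to 551 to 585 CPM in resistant PC3, 1030 to 1040 in parental PC3, 1530 to 1570 in resistant DU145 and 896 to 934 in parental DU145.

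In resistant PC3, PMEPA1, SMAD6 and SMAD7 were all lower than in parental PC3, while INHBA and FST were higher. In resistant DU145, PMEPA1, SKIL, SMAD3 and FST were higher than in parental DU145, while SMAD6 and SMAD7 overlapped between the groups. TGFB2 and SMAD3 were higher and TGFB1 slightly lower in both resistant sublines. Since whole cultures were sequenced, fewer cells expressing a gene and less RNA per cell cannot be told apart.

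**Figure D1:**
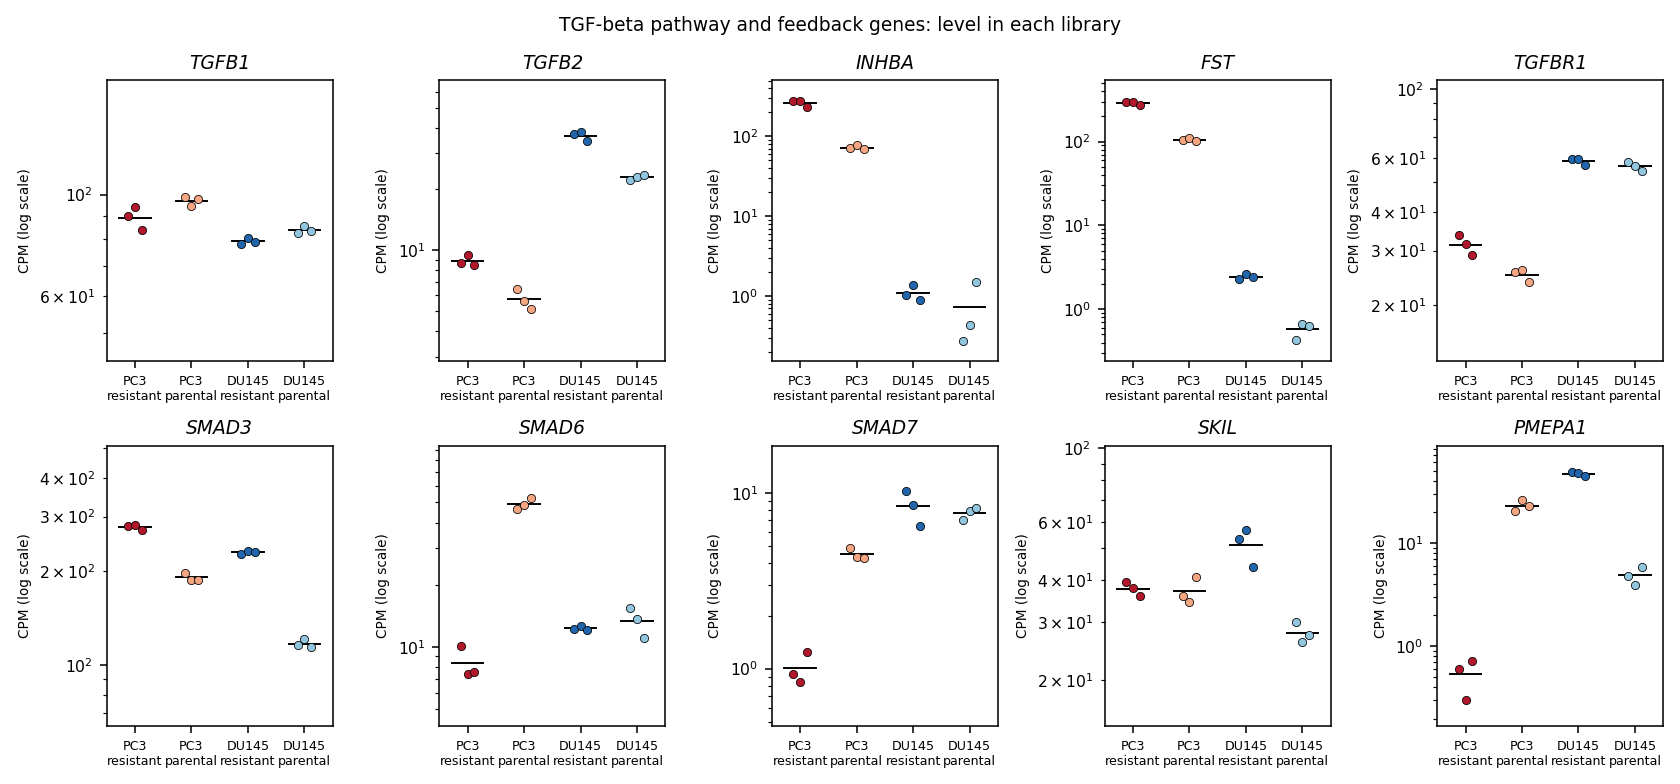
Level of each of the 10 genes in every library, in CPM on a log axis, with 1 point per library and a line at the mean of the 3 libraries of a group. PMEPA1 was lowest in resistant PC3, at 0.302 to 0.724 CPM, and highest in resistant DU145, at 44.2 to 48.4 CPM.

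Of the ligands, TGFB1 and TGFB2 encode isoforms of TGF-beta itself. TGFB1 (ENSG00000105329, chr19, GRCh38) had 89.6, 93.8 and 83.7 CPM in resistant PC3, against 98.6, 94.6 and 97.7 CPM in parental PC3. In DU145 it had 78.1, 80.6 and 78.8 CPM in resistant and 82.3, 85.5 and 83.4 CPM in parental cells. The resistant libraries lay just under the parental ones in both lines, with a log2 difference of -0.12 ± 0.05 (SE) in PC3 and -0.08 ± 0.05 in DU145. TGFB2 (ENSG00000092969, chr1) had 8.70, 9.46 and 8.48 CPM in resistant PC3, against 6.46, 5.6 and 5.13 CPM in parental PC3. In DU145 it reached 37.4, 38.2 and 34.4 CPM in resistant and 22.2, 22.9 and 23.4 CPM in parental cells. No library overlapped in either line, and the log2 differences were of like size, 0.63 ± 0.10 in PC3 and 0.68 ± 0.10 in DU145. The sign of the difference between these 2 values, -0.05 ± 0.14, changed when single libraries were left out (-0.13 to 0.04).

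INHBA (ENSG00000122641, chr7) encodes the beta A subunit, which pairs with itself to form activin A. It had 281, 278 and 237 CPM in resistant PC3, against 70.8, 77.6 and 69.2 CPM in parental PC3, a log2 difference of 1.87 ± 0.25. In DU145 the gene was close to silent, with 1.04, 1.37 and 0.894 CPM in resistant and 0.275, 0.436 and 1.48 CPM in parental cells. The PC3 groups stood clear of each other. The DU145 groups overlapped because the third parental library was higher than all resistant ones: the log2 difference of 0.61 ± 0.49 was 1.64 without that library, 0.21 without the first parental library and 0.35 without the second.

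FST (ENSG00000134363, chr5), whose product follistatin neutralises activins, followed INHBA in its range. It had 298, 299 and 271 CPM in resistant PC3, against 104, 109 and 101 CPM in parental PC3, a log2 difference of 1.47 ± 0.07. Its levels in DU145 were 2.29, 2.65 and 2.39 CPM in resistant and 0.433, 0.661 and 0.631 CPM in parental cells, a log2 difference of 2.09 ± 0.12. Every resistant library was above every parental one in both lines, though the levels in DU145 were far below those in PC3. The log2 difference in PC3 minus that in DU145 was -0.62 ± 0.15 on counts but 0.76 on log2(FPKM + 1), a scale that understates differences between low levels.

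TGFBR1 (ENSG00000106799, chr9) encodes the type I receptor for TGF-beta. It had 33.7, 31.5 and 29 CPM in resistant PC3, against 25.5, 25.9 and 23.7 CPM in parental PC3. In DU145 its values were 59.4, 59.3 and 57.0 CPM in resistant and 58.3, 56.6 and 54.2 CPM in parental cells. The PC3 groups did not overlap (log2 difference 0.33 ± 0.07) and the DU145 groups did (0.05 ± 0.07).

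SMAD3 (ENSG00000166949, chr15), the receptor-activated SMAD that binds DNA, had 280, 282 and 271 CPM in resistant PC3, against 198, 188 and 188 CPM in parental PC3. DU145 libraries gave 227, 233 and 230 CPM in resistant and 116, 121 and 114 CPM in parental cells. The 3 libraries of each group were tight and no groups overlapped. The log2 difference was 0.54 ± 0.04 in PC3 and 0.98 ± 0.04 in DU145, and the value in PC3 minus that in DU145 was -0.44 ± 0.05.

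Among the inhibitors, SMAD6 (ENSG00000137834, chr15), best known for restraining BMP signals, had 10.1, 7.43 and 7.55 CPM in resistant PC3, against 46.6, 48.5 and 52.3 CPM in parental PC3. In DU145 it had 12.2, 12.7 and 12.1 CPM in resistant and 15.4, 13.6 and 11.1 CPM in parental cells. The parental PC3 libraries stood above the other 9, the log2 difference in PC3 was -2.55 ± 0.14, and the DU145 groups overlapped (-0.12 ± 0.13). SMAD7 (ENSG00000101665, chr18), which blocks type I receptors and brings ubiquitin ligases to them, had 0.928, 0.844 and 1.24 CPM in resistant PC3, against 4.85, 4.29 and 4.24 CPM in parental PC3. Its DU145 values were 10.3, 8.48 and 6.5 CPM in resistant and 7.01, 7.86 and 8.18 CPM in parental cells. As with SMAD6, the log2 difference in PC3 was large (-2.15 ± 0.23, but -0.77 on log2(FPKM + 1)) and the DU145 groups overlapped (0.14 ± 0.21).

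SKIL (ENSG00000136603, chr3), which encodes the SMAD corepressor SnoN, showed the reverse arrangement. It had 39.5, 37.9 and 35.9 CPM in resistant PC3, against 35.8, 34.4 and 40.9 CPM in parental PC3. The DU145 levels were 53.2, 56.6 and 43.8 CPM in resistant and 29.9, 26.1 and 27.4 CPM in parental cells. The PC3 groups overlapped (log2 difference 0.03 ± 0.10), and the DU145 groups did not (0.88 ± 0.10).

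PMEPA1 (ENSG00000124225, chr20:57648392-57711536, minus strand) was the member that lay in opposite directions in the 2 lines without overlap. It had 0.599, 0.302 and 0.724 CPM in resistant PC3, against 20.2, 25.9 and 22.5 CPM in parental PC3. In DU145 it had 48.4, 47.5 and 44.2 CPM in resistant and 4.80, 3.94 and 5.83 CPM in parental cells. The log2 difference was -5.38 ± 0.23 in PC3 and 3.27 ± 0.19 in DU145, which put the value in PC3 minus that in DU145 at -8.65 ± 0.30. With each library left out in turn this stayed between -8.91 and -8.36. On log2(FPKM + 1), which understates differences of low levels, it was -4.49, with -2.18 in PC3 and 2.31 in DU145.

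The exons of PMEPA1 overlap those of NKILA, an antisense noncoding gene known as an inhibitor of NF-kB signalling, which was looked at after its values were seen. NKILA had 0, 3 and 0 counts in resistant PC3, against 238, 122 and 105 counts in parental PC3. Its levels in DU145 were 15, 9 and 5 counts in resistant and 170, 134 and 272 counts in parental cells. All resistant libraries had fewer NKILA counts than the parental ones of their line, so in DU145 the pair lay in opposite directions. The libraries keep strand, but the strand setting of the counting is not given in the sources used here, so reads of overlapping genes may have been shared. The same holds for TGFB1, whose exons overlap HNRNPUL1 on the other strand, a gene that was higher in resistant than in parental PC3 (log2 difference 0.31 ± 0.03). SMAD3 overlaps the antisense gene AC087482.1 and TGFB2 the same-strand transcript TGFB2-OT1, which averaged at most 0.205 CPM in any group.

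**Figure D2:**
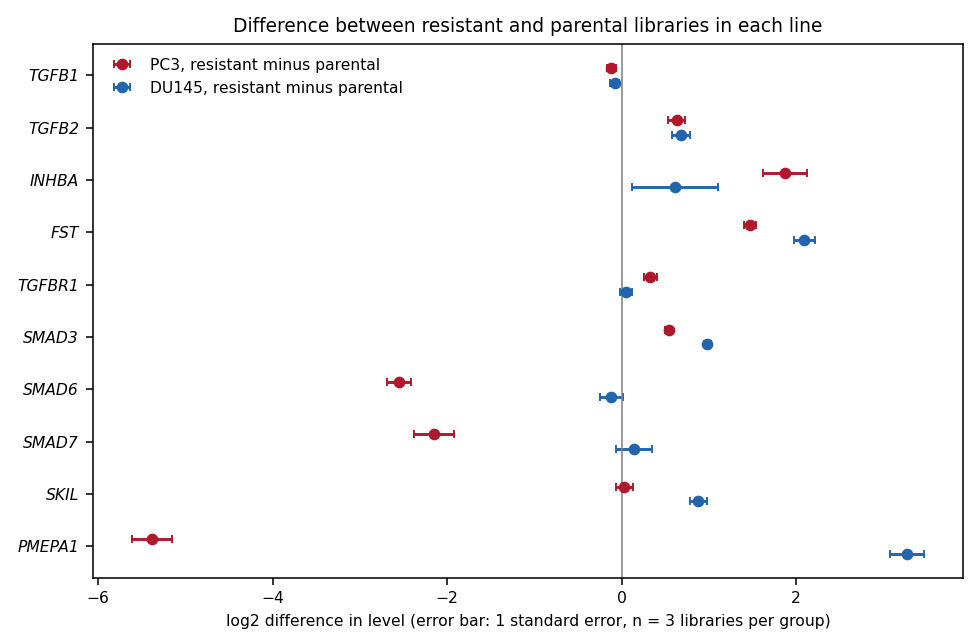
Log2 difference, resistant minus parental, of the 10 genes in PC3 and in DU145, with error bars of 1 standard error. PMEPA1 lies at -5.38 in PC3 and 3.27 in DU145, while SMAD6 and SMAD7 lie below -2 in PC3 and near 0 in DU145.

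Counted by overlap, 9 of the 10 genes did not overlap between resistant and parental PC3, with 5 higher and 4 lower, and SKIL overlapped. Of all 24128 genes, 54.4% did not overlap in that comparison (27.2% higher and 27.2% lower). In DU145 6 of the 10 did not overlap, with 5 higher and TGFB1 lower, against 51.2% of all genes (25.1% higher and 26.0% lower). The median log2 difference of the 10 was 0.18 in PC3 and 0.65 in DU145, and that of all genes was 0.00 in each. Since the genes were chosen with these values known, nothing is read from the counts.

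The parental lines already differed in these genes. Parental PC3 had more INHBA (log2 difference 6.65 ± 0.36), FST (7.51 ± 0.10), PMEPA1 (2.24 ± 0.18) and SMAD6 (1.88 ± 0.13) than parental DU145, and also more SMAD3 (0.71 ± 0.04), SKIL (0.41 ± 0.10) and TGFB1 (0.21 ± 0.05). It had less TGFB2 (-1.99 ± 0.10), TGFBR1 (-1.17 ± 0.07) and SMAD7 (-0.78 ± 0.22). All 10 genes were free of overlap between the parental lines, against 67.7% of all genes (34.6% higher and 33.2% lower).

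Compared per length, FST was the most abundant of the 10 in resistant PC3, at 102 ± 5.44 FPKM (SD, n = 3), and in parental PC3, at 37.8 ± 1.63 FPKM. In DU145 the highest was TGFB1, at 24.5 ± 0.512 FPKM in resistant and 26.3 ± 0.651 FPKM in parental cells. For PMEPA1 the order of groups ran through resistant DU145 (8.22 ± 0.366 FPKM), parental PC3 (3.97 ± 0.492), parental DU145 (0.870 ± 0.178) and resistant PC3 (0.0915 ± 0.0365), with no neighbours overlapping. For SMAD6 it ran through parental PC3 (5.71 ± 0.312), parental DU145 (1.60 ± 0.240), resistant DU145 (1.45 ± 0.0404) and resistant PC3 (0.948 ± 0.167), and the 2 DU145 groups overlapped. For SMAD7 resistant DU145 (2.16 ± 0.481) and parental DU145 (2.00 ± 0.180) overlapped, above parental PC3 (1.12 ± 0.0896) and resistant PC3 (0.246 ± 0.0510). Both inhibitory SMADs and PMEPA1 were thus lowest in resistant PC3.

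INHBA ran through resistant PC3 (31.0 ± 2.80 FPKM), parental PC3 (8.71 ± 0.540), resistant DU145 (0.134 ± 0.0302) and parental DU145 (0.0910 ± 0.0824), and the last 2 overlapped. FST kept the same order with no overlap, at 0.897 ± 0.0724 FPKM in resistant DU145 and 0.215 ± 0.0477 in parental DU145. SMAD3 was highest in resistant PC3 (26.9 ± 0.553), then resistant DU145 (23.3 ± 0.406), parental PC3 (19.1 ± 0.657) and parental DU145 (12 ± 0.356), all apart. TGFB2 was highest in resistant DU145 (6.12 ± 0.335), then parental DU145 (3.88 ± 0.153), resistant PC3 (1.42 ± 0.0872) and parental PC3 (0.943 ± 0.115), all apart. In the remaining 3 genes 1 pair of neighbours overlapped each: resistant PC3 and parental DU145 for TGFB1, the DU145 groups for TGFBR1 and the PC3 groups for SKIL.

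Over the 12 libraries and 15769 genes with at least 1 CPM on average, the profile most like that of PMEPA1 in log2(CPM + 1) belonged to NHS (Pearson r = 0.990), a gene for an actin regulator, followed by the mitochondrial gene MT-CO3 (0.988) and AP000769 (0.987). For SMAD7 the most alike included the mitochondrial ribosomal RNA MT-RNR2 (0.985) and AP003486 (0.985). With 4 groups of 3 libraries these values describe mainly the order of 4 group means. The share of counts from the mitochondrial genome was 3.5% ± 0.0424 in resistant PC3, 5.82% ± 0.197 in parental PC3, 7.08% ± 0.0528 in resistant DU145 and 4.11% ± 0.173 in parental DU145 (SD, n = 3), so it stood in the same order as PMEPA1, and its part in the differences was not tested.

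The other 94 genes of the superfamily were placed in 7 lists, of which 90 genes passed the filter. They were tested with edgeR's quasi-likelihood F test, with p-values adjusted by the Benjamini-Hochberg method over all 24128 genes, and a gene was called at an adjusted p under 0.05. Resistant PC3 differed from parental PC3 in 61 of the 90, with 27 higher, 34 lower and 29 not passing, or 67.8% against 44.0% of all genes (22.4% higher and 21.6% lower). For resistant against parental DU145 56 were called, 28 up and 28 down, while 34 did not pass, or 62.2% against 39.6% of all genes (18.9% higher and 20.7% lower). The lists were also written with earlier results in view, and the median change over the 90 genes was -0.13 in PC3 and -0.02 in DU145, against 0.00 for all genes in each. Of 42 genes called in both lines, 23 changed in opposite directions and 19 in the same direction, and over all 6163 such genes 47.4% were opposite. Called for a difference between the lines, by the test of the change in PC3 minus that in DU145, were 58 of the 90, or 64.4% against 42.1% of all genes (22.1% higher and 20.0% lower). The shares over all genes depend on the level of the genes tested. When only the 15774 genes with a mean of at least 1 CPM were tested, 9917 were called in PC3 and 9100 in DU145. For the difference between the lines the number was 9587. The 90 genes were not matched to all genes by level, so no excess of calls is read from these shares. The same holds for the counts of the single lists below.

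**Figure D3:**
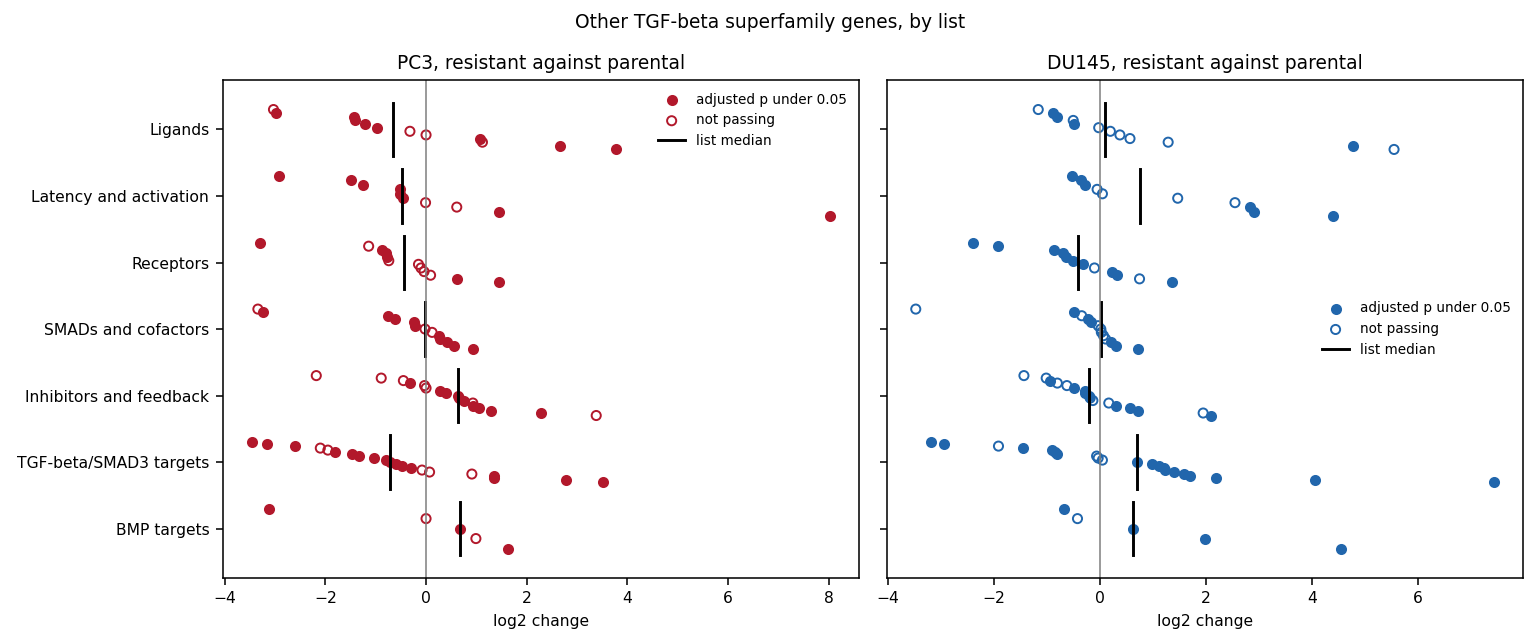
Log2 change, resistant against parental, of the 90 tested genes in 7 lists, for PC3 and for DU145, with filled points for an adjusted p under 0.05, open points for genes not passing and a bar at the median of each list. The median of the TGF-beta/SMAD3 targets lies at -0.71 in PC3 and at 0.71 in DU145.

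The list of 21 TGF-beta/SMAD3 target genes lay on opposite sides of 0 in the 2 lines. In PC3 4 rose, 12 fell and 5 did not pass (median log2 change -0.71), whereas in DU145 11 rose, 6 fell and 4 did not pass (median 0.71). Of the 13 targets called in both lines 8 changed in opposite directions, among them CDKN1A, JUNB, BHLHE40, IL11, COL4A1, ADAM19 and PDGFB, and 5 in the same direction, CDKN2B, SNAI2, FN1, COL1A1 and TPM1. The change differed between the lines in 16 of the 21, being lower in PC3 in 11 and higher in 5. Over all genes tested, 42.1% were called for such a difference (20.0% lower and 22.1% higher). Of all genes called in both lines, 47.4% changed in opposite directions.

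PDGFB, which encodes a growth factor for mesenchymal cells, had 3.5, 3.45 and 2.97 CPM in resistant PC3, against 35.1, 37.6 and 36.2 CPM in parental PC3 (log2 change -3.46 ± 0.15, adjusted p = 3.91e-11). It had 12.2, 10.4 and 11.1 CPM in resistant DU145, against 4.16, 3.36 and 2.78 CPM in parental DU145 (1.71 ± 0.14, adjusted p = 8.40e-08). Resistant and parental libraries were apart in both lines, on opposite sides, and the difference between the lines was called (-5.16 ± 0.21, adjusted p = 1.64e-11). ADAM19, a membrane metalloprotease gene, had 117, 108 and 97.7 CPM in resistant PC3, against 164, 158 and 166 CPM in parental PC3 (-0.60 ± 0.13, adjusted p = 0.00199). It had 82.0, 84.6 and 86.8 CPM in resistant DU145, against 0.231, 0.436 and 0.800 CPM in parental DU145 (7.44 ± 0.20, adjusted p = 3.83e-11). ADAM19 was thus nearly absent from parental DU145 alone, and the difference between the lines was -8.04 ± 0.24 (adjusted p = 9.92e-11). Its exons overlap CYFIP2 on the other strand.

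SNAI2, a transcriptional repressor of epithelial genes, rose in both lines: 43.2, 44.5 and 42.4 CPM in resistant PC3, against 4.07, 3.45 and 3.81 CPM in parental PC3 (3.52 ± 0.28, adjusted p = 1.51e-07). DU145 libraries gave 4.10, 3.39 and 1.82 CPM in resistant and 0.260, 0.0601 and 0.231 CPM in parental cells (4.06 ± 0.36, adjusted p = 6.92e-07). FN1, the gene of the matrix protein fibronectin, fell in both: 579, 589 and 519 CPM in resistant PC3, against 1370, 1340 and 1550 CPM in parental PC3 (-1.34 ± 0.08, adjusted p = 6.52e-09). In DU145 it had 27.9, 31.1 and 34.8 CPM in resistant and 280, 289 and 285 CPM in parental cells (-3.19 ± 0.08, adjusted p = 4.14e-12). The fall of FN1 was larger in DU145 (1.85 ± 0.11, adjusted p = 1.06e-08), whereas the rise of SNAI2 was not called different (-0.54 ± 0.46, adjusted p = 0.400). COL1A1, a fibrillar collagen gene, fell in PC3 by 3.16 ± 0.20 on the log2 scale (adjusted p = 2.94e-08) and in DU145 by 0.81 ± 0.20 (adjusted p = 0.00522).

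All 5 epithelial markers fell in PC3, while in DU145 4 rose and KRT19 fell. CDH1 fell in PC3 (-3.29 ± 0.33, adjusted p = 7.97e-06) and rose in DU145 (4.29 ± 0.31, adjusted p = 6.55e-07). SNAI2 rose in both lines, to 42.4 to 44.5 CPM in resistant PC3 and 1.82 to 4.1 CPM in resistant DU145. Its part in the changes of CDH1 was not tested. Of 8 fibroblast markers, 3 fell and 5 did not pass in PC3 (COL1A1, COL3A1 and PDGFRA fell), and 3 fell and 5 did not pass in DU145 (COL1A1, COL1A2 and PDGFRA fell). The fibroblast markers summed to 14.2 to 20.9 CPM in resistant PC3, against 126 to 137 CPM in parental PC3, and to 5.71 to 11.5 CPM in resistant DU145, against 23.8 to 41.8 CPM in parental DU145. COL1A1 and COL1A2 are also among the targets and DCN among the inhibitors, all 8 fibroblast markers had counts in every group, and the part of other cells in these changes was not tested. Of 6 leukocyte markers, PTPRC was at 0 in DU145, CD3E at 0 in PC3, and their sums reached at most 3.10 CPM. Endothelial markers were at most 0.986 CPM in DU145 but 53.9 to 77.3 CPM in resistant PC3 and 177 to 233 CPM in parental PC3, carried by KDR and PECAM1, while VWF was at 0 in parental PC3. In resistant PC3 KDR fell (-2.13 ± 0.24, adjusted p = 3.7e-05) and PECAM1 rose (0.58 ± 0.20, adjusted p = 0.0274).

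**Figure D4:**
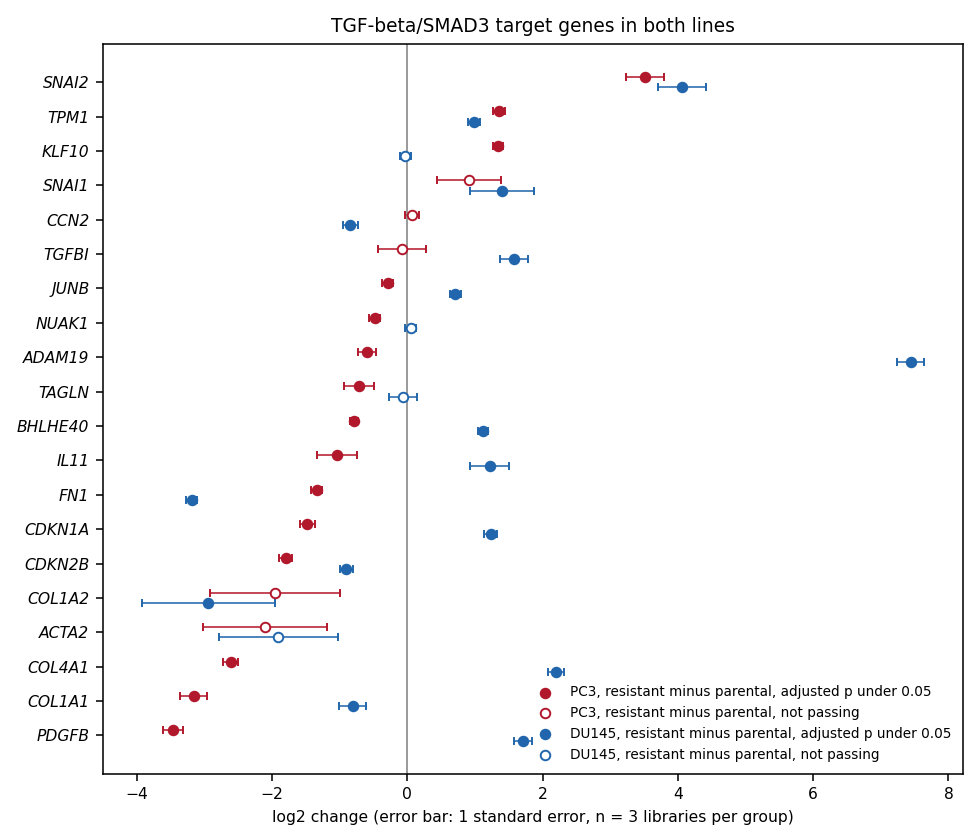
Log2 change, resistant minus parental, of the TGF-beta/SMAD3 target genes reported here in PC3 and in DU145, ordered by the change in PC3, with error bars of 1 standard error and open points for genes not passing. PDGFB lies at -3.46 in PC3 and 1.71 in DU145, and SNAI2 at 3.52 in PC3 and 4.06 in DU145.

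Of 17 inhibitors and feedback genes other than the members, 9 rose in resistant PC3, WWP1 fell and 7 did not pass (median log2 change 0.63). In DU145 4 rose, 5 fell and 8 did not pass (median -0.20). Of the 10 called for a difference between the lines, 9 were higher in PC3 and NEDD4L was lower. BAMBI, a decoy receptor without a kinase domain, had 2.68, 2.07 and 2.83 CPM in resistant PC3, against 0.488, 0.421 and 0.640 CPM in parental PC3 (2.29 ± 0.36, adjusted p = 7.48e-05). Its DU145 values were 2.09, 1.76 and 1.76 CPM in resistant and 0.390, 0.526 and 0.400 CPM in parental cells (2.09 ± 0.36, adjusted p = 0.000220). BAMBI stayed under 3 CPM in every library, and its changes in the lines were not called different (0.20 ± 0.50, adjusted p = 0.823).

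NOG, whose product noggin binds BMPs, had 78.1, 89.5 and 80.8 CPM in resistant PC3, against 33.1, 33.2 and 35.2 CPM in parental PC3 (1.29 ± 0.10, adjusted p = 2.77e-08), and did not pass in DU145 (-0.13 ± 0.14, adjusted p = 0.521). SMURF2, a ubiquitin ligase that SMAD7 recruits, rose in PC3 (1.05 ± 0.06, adjusted p = 3.69e-10) and in DU145 (0.57 ± 0.06, adjusted p = 4.44e-07). WWP1, a related ligase, fell in PC3 (-0.31 ± 0.06, adjusted p = 0.000650) and in DU145 (-0.94 ± 0.06, adjusted p = 7.41e-09). NEDD4L, a further ligase of the family, rose in DU145 (0.72 ± 0.06, adjusted p = 3.47e-08) and did not pass in PC3 (-0.03 ± 0.05, adjusted p = 0.696). The direction in PC3 for SMURF2 was thus opposite to that of the members SMAD6, SMAD7 and PMEPA1. SMURF2 overlaps CEP95, WWP1 overlaps RMDN1 and NEDD4L overlaps 2 genes, all on the other strand.

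Latency and activation genes, a list drawn up around the storage of TGF-beta in the matrix and its release, lay lower in resistant PC3 and were split in DU145. Of 10 tested in PC3, 2 rose, 6 fell and 2 did not pass (median -0.49). In DU145 3 rose, 3 fell and 4 did not pass (median 0.76, which was 0.04 on log2(FPKM + 1)). LTBP2, listed by its family name and not for a shown role in TGF-beta storage, had 9.19, 7.42 and 8.63 CPM in resistant PC3. Parental PC3 had 60.3, 59.4 and 71.1 CPM (-2.92 ± 0.11, adjusted p = 1.14e-11). The DU145 levels were 68.8, 71.6 and 71.1 CPM in resistant and 8.96, 8.35 and 11 CPM in parental cells (2.90 ± 0.11, adjusted p = 1.28e-11). The 2 lines had nearly exchanged levels, and the difference between them was -5.82 ± 0.16 (adjusted p = 2.55e-13).

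LTBP1, which tethers latent TGF-beta to the matrix, had 234, 219 and 209 CPM in resistant PC3, against 297, 296 and 317 CPM in parental PC3 (-0.46 ± 0.07, adjusted p = 3.29e-05). In DU145 it had 18.6, 18.8 and 20.5 CPM in resistant and 0.694, 1.02 and 1.05 CPM in parental cells (4.39 ± 0.10, adjusted p = 5.05e-14). LTBP1 and LTBP2 thus fell in resistant PC3 and rose in resistant DU145. Each overlaps an antisense gene. LTBP3 fell in PC3 (-1.49 ± 0.06, adjusted p = 2.76e-11) and in DU145 (-0.52 ± 0.06, adjusted p = 4.20e-06). THBS1, whose product thrombospondin can activate latent TGF-beta, rose in PC3 (1.44 ± 0.08, adjusted p = 4.70e-10) and fell in DU145 (-0.28 ± 0.08, adjusted p = 0.00709), and it overlaps FSIP1. ITGB8, an integrin subunit gene, rose in DU145 (2.84 ± 0.31, adjusted p = 2.22e-06) but only to 1.25, 2.37 and 1.02 CPM, and the call was lost on log2(FPKM + 1).

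Of 12 receptor genes 7 fell in resistant DU145, 3 rose and 2 did not pass (median -0.42). In PC3 2 were higher, 4 lower and 6 did not pass (median -0.45). TGFBR3, the coreceptor betaglycan, had 37.0, 34.5 and 38.4 CPM in resistant PC3, against 14, 13.1 and 13.2 CPM in parental PC3 (1.45 ± 0.08, adjusted p = 5.37e-10). Its levels in DU145 were 12.3, 11.9 and 12.7 CPM in resistant and 48.2, 47.2 and 43.0 CPM in parental cells (-1.91 ± 0.08, adjusted p = 3.44e-11). TGFBR3 therefore changed in opposite directions, with a difference between the lines of 3.36 ± 0.11 (adjusted p = 2.28e-12).

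BMPR2, the type II receptor for BMPs, fell in both lines by nearly the same amount, -0.88 ± 0.06 in PC3 (adjusted p = 8.64e-09) and -0.87 ± 0.06 in DU145 (adjusted p = 1.24e-08). ENG, the coreceptor endoglin, fell in PC3 (-3.29 ± 0.27, adjusted p = 6.03e-08) and in DU145 (-0.69 ± 0.25, adjusted p = 0.0394), and it overlaps an antisense gene. The DU145 libraries overlapped in ENG level, at 2.2 to 4.5 CPM in resistant and 3.94 to 5.86 CPM in parental cells. BMPR1B, a type I BMP receptor gene, rose in DU145 (1.37 ± 0.16, adjusted p = 4.65e-06) and did not pass in PC3 (-0.10 ± 0.15, adjusted p = 0.650). ACVR1C, the type I receptor for nodal, fell in DU145 (-2.39 ± 0.64, adjusted p = 0.00694) at a level of at most 1.28 CPM.

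Of 12 other ligand genes, 3 rose, 5 fell and 4 did not pass in PC3 (median -0.65, or -0.98 with genes at 0 in a group set to a floor of 3 counts over the group). In DU145 1 rose, 3 fell and 8 did not pass (median 0.09, which was -0.01 on log2(TPM + 1)). BMP6 had 12.7, 14.4 and 12.6 CPM in resistant PC3, against 0.783, 0.920 and 1.20 CPM in parental PC3 (3.77 ± 0.32, adjusted p = 7.76e-08). DU145 libraries gave 3.39, 2.16 and 1.36 CPM in resistant and 4.84, 3.95 and 3.28 CPM in parental cells (-0.80 ± 0.29, adjusted p = 0.0371). The rise in PC3 was free of overlap, while the DU145 groups overlapped and the call was lost with any 1 of 7 libraries left out (parental DU145 1 or 2, resistant DU145 2 or 3, resistant PC3 1, 2 or 3), the change then being -0.81 to -0.53.

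BMP4 fell in PC3 (-1.44 ± 0.22, adjusted p = 4.59e-05) and in DU145 (-0.89 ± 0.21, adjusted p = 0.00258). GDF11, a ligand close to myostatin, also fell in PC3 (-0.98 ± 0.08, adjusted p = 5.70e-08) and in DU145 (-0.49 ± 0.08, adjusted p = 0.000130), and overlaps SARNP. INHA, whose subunit pairs with that of INHBA to make inhibin in place of activin, had 0.254, 0.414 and 0.256 CPM in resistant PC3, against 2.14, 1.9 and 3.28 CPM in parental PC3 (-2.98 ± 0.54, adjusted p = 0.000241). INHA thus fell where INHBA was higher, and it did not pass in DU145 (0.38 ± 0.51, adjusted p = 0.629). NODAL, a ligand of the early embryo, rose in PC3 (2.67 ± 0.68, adjusted p = 0.00442) to 1.27, 0.589 and 1.66 CPM, and overlaps an antisense gene.

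SMADs and their cofactors were evenly split: 5 of 13 rose, 5 fell and 3 did not pass in PC3 (median -0.02), and 3 rose, 3 fell and 7 did not pass in DU145 (median 0.02). Of the 6 called in both lines, SMAD4, ZFYVE9, EP300, TGIF2 and TRIM33 changed in opposite directions and SMAD1 rose in both. SMAD9, a SMAD of the BMP branch, had 0.434, 0.939 and 0.937 CPM in resistant PC3, against 7.89, 6.82 and 7.05 CPM in parental PC3 (-3.23 ± 0.27, adjusted p = 5.76e-08), and did not pass in DU145 (-0.34 ± 0.24, adjusted p = 0.303). TRIM33, a ligase and chromatin partner of SMADs, rose in PC3 (0.94 ± 0.05, adjusted p = 2.96e-10) and fell slightly in DU145 (-0.16 ± 0.05, adjusted p = 0.0156). TGIF1, a corepressor, fell in PC3 (-0.75 ± 0.06, adjusted p = 2.78e-08) and did not pass in DU145 (0.07 ± 0.06, adjusted p = 0.367), whereas its relative TGIF2 fell in PC3 (-0.62 ± 0.12, adjusted p = 0.000403) and rose in DU145 (0.73 ± 0.12, adjusted p = 0.000152). ZFYVE9, the anchor protein that presents SMAD3 to receptors, rose in PC3 (0.41 ± 0.07, adjusted p = 0.000222) and fell in DU145 (-0.48 ± 0.07, adjusted p = 5.65e-05). SMAD1 rose in PC3 by 0.56 ± 0.07 on the log2 scale (adjusted p = 3.96e-06) and in DU145 by 0.31 ± 0.07 (adjusted p = 0.00160). TGIF2, ZFYVE9 and SMAD1 overlap other genes.

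Of the BMP targets 5 of 7 passed the filter, and in PC3 2 rose, 1 fell and 2 did not pass (median 0.68, or 0.83 with the floor), while in DU145 3 rose, 1 fell and 1 did not pass (median 0.63). ID1, an inhibitor of differentiation factors, had 47.2, 49.7 and 48.0 CPM in resistant PC3, against 15.4, 16.8 and 14.6 CPM in parental PC3 (1.63 ± 0.07, adjusted p = 3.79e-11). In DU145 it had 117, 101 and 109 CPM in resistant and 74.7, 68.7 and 68.0 CPM in parental cells (0.63 ± 0.07, adjusted p = 1.32e-06). ID2, its relative, moved the other way, with 7.06, 5.14 and 5.01 CPM in resistant PC3, against 43.6, 53.7 and 52.0 CPM in parental PC3 (-3.12 ± 0.14, adjusted p = 6.55e-11), and a smaller fall in DU145 (-0.68 ± 0.13, adjusted p = 0.000510). ID2 overlaps ID2-AS1. ID3 rose in PC3 (0.68 ± 0.19, adjusted p = 0.00950) at a low level, 3.10, 5.49 and 5.75 CPM in resistant against 2.85, 3.38 and 2.75 CPM in parental cells, and did not pass in DU145 (-0.42 ± 0.16, adjusted p = 0.0575). MSX2, a homeobox gene, had 1.49, 1.57 and 1.33 CPM in resistant DU145, against 0.00, 0.0601 and 0.123 CPM in parental DU145 (4.55 ± 1.09, adjusted p = 0.00552), and no counts in PC3.

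Between the parental lines 70 of the 90 genes were called, 43 higher and 27 lower in PC3, or 77.8% against 60.3% of all genes (30.9% higher and 29.5% lower), with a median of 0.19. When only the 15774 genes with a mean of at least 1 CPM were tested, 12261 were called. The largest share of calls among lists of over 10 genes was in the receptors, 11 of 12. Of the TGF-beta/SMAD3 targets, 13 of 21 were higher in parental PC3, 4 lower and 4 not passing (median 0.92).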

How the data were processed

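For each sample the authors deposited read counts as whole numbers beside FPKM, listing 38611 Ensembl genes, of which 71 had no FPKM, and no other unit was used except TPM, recomputed from FPKM. Libraries were oligo(dT)-selected, paired-end and strand-marked with dUTP, per the labels' protocols. Per the submitters' processing notes, the tools included HISAT2 2.0.4, cutadapt 1.9 and StringTie 1.3.4d, with edgeR and DESeq2, and the build was hg18, but 37308 of 37385 genes shared with GENCODE 29 overlap it on GRCh38, so coordinates are given as GRCh38. Neither the counting program nor its strand setting is given in the sources used here.

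Genes were filtered with filterByExpr, scaled with TMM and fitted with 1 mean per group over the 12 libraries (8 residual degrees of freedom) in edgeR 4.0.16 under R 4.3.3, and tested with two-sided quasi-likelihood F tests adjusted over all genes tested. The step was tested on simulated data. Alternatives were DESeq2 1.42.0 (its test and its size factors), library totals, 2 other filters, limma 3.58.1 on log2(FPKM + 1), log2(FPKM + 0.1) and log2(TPM + 1), a replicate block and each library left out. The members, lists and tests were chosen with earlier results of these data known. Named genes are the 10 members and, per list and line, the 3 called genes with the largest change and at least 1 CPM in a group. FPKM were used for levels between genes. A few items are not reported here.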

Additional observations from a re-analysis of the deposited data

Results flagged for a closer look

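The differences below are the log2 change in PC3 minus the log2 change in DU145, each change being resistant minus parental. PMEPA1 was singled out because its 3 resistant PC3 libraries lay below all parental PC3 ones while its 3 resistant DU145 libraries lay above all parental DU145 ones (-8.65), and this difference was not tested because the gene was chosen with its values known. Of the 35 other genes named in the text, 29 were singled out because the change itself differed between the lines at an adjusted p under 0.05 (edgeR quasi-likelihood test over all 24128 genes, 3 libraries per group). These genes were named for the size of their change in a line, so their number is not set against that of all genes. Among the ligands the difference was 4.57 for BMP6, -0.49 for GDF11, -3.36 for INHA and 2.46 for NODAL. Among the latency and activation genes the difference was -4.85 for LTBP1, -5.82 for LTBP2, -2.85 for ITGB8, -0.97 for LTBP3 and 1.72 for THBS1. Among the receptors the difference was 3.36 for TGFBR3, -1.47 for BMPR1B and -2.60 for ENG. Among SMADs and cofactors the difference was -1.35 for TGIF2, 0.89 for ZFYVE9, 0.25 for SMAD1, -2.90 for SMAD9, 1.10 for TRIM33 and -0.83 for TGIF1. Among inhibitors and feedback genes the difference was 0.63 for WWP1, -0.75 for NEDD4L, 1.42 for NOG and 0.48 for SMURF2. Among TGF-beta/SMAD3 targets the difference was -8.04 for ADAM19, 1.85 for FN1, -5.16 for PDGFB and -2.35 for COL1A1. Among BMP targets the difference was -2.43 for ID2, 1.0 for ID1 and 1.10 for ID3.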

How the results depend on the processing

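The 94 pathway genes were recounted under 21 other settings, of which 12 left out 1 library each, and every count of genes called, higher or lower stayed within 1.5 times that reported. With single libraries left out, PC3 had 60 to 62 genes called (27 to 28 higher, 33 to 35 lower), DU145 had 51 to 57 (25 to 29 higher, 25 to 29 lower), the parental lines 65 to 71 (40 to 43 higher, 25 to 29 lower) and the difference between the lines 53 to 59 (23 to 28 higher, 30 to 32 lower). With the replicate number as a block the counts were 61 in PC3, 56 in DU145, 66 between the parental lines and 55 for the difference between the lines. The numbers do not pair the samples, since same-numbered resistant and parental libraries deviated together with correlations of only -0.0538 to 0.0303. On log2(TPM + 1) the share of higher genes among all genes called was 36.1% in DU145 against 47.7% as reported, and 62.8% against 52.5% for the difference between the lines, whose median over all genes was 0.14 against 0.02. Of the members, the FST difference between the lines (-0.62) was 0.76 on log2(FPKM + 1) and 0.36 on log2(TPM + 1); the cause was not tested. Member values that moved past both 1.5 times and the spread between libraries did so on the scales with a pseudocount. On log2(FPKM + 1), PMEPA1 was -2.18 in PC3, 1.41 between the parental lines and -4.49 for the difference between the lines, SMAD7 was -0.77, -0.50 and -0.83, TGFB2 was 0.32 in PC3, FST was 0.64 in DU145, and between the parental lines FST was 5.00 and INHBA 3.15. On log2(TPM + 1), PMEPA1 was -3.47 and SMAD7 -1.36 in PC3, FST was 1.19 and TGFB1 -0.23 in DU145, TGFB1 was 0.08 between the parental lines, and the difference between the lines was -1.33 for SMAD7, -0.21 for SMAD3 and 0.47 for TGFBR1. On log2(FPKM + 0.1) the FST difference between the lines was -0.25. The sign also varied with the setting for values near 0: SKIL in PC3, SMAD7 and TGFBR1 in DU145, and the differences between the lines of TGFB1 and TGFB2. SMAD6 in DU145 ran from -0.23 to -0.0. Calls of named genes were lost for BMP6 in DU145 as described above, for ITGB8 in DU145 on log2(FPKM + 1) (0.12) and log2(TPM + 1) (0.36), and for SMAD1 in DU145 on log2(TPM + 1) (0.15). Of the differences between the lines, that of SMAD1 lost its call under 13 of the 21 settings (0.20 to 0.25), that of NODAL under 10 (2.14 to 2.56), that of ITGB8 on the same 2 scales (-0.14 and -0.29) and that of GDF11 on log2(TPM + 1) (-0.26). With 3 libraries per group and variance between libraries of 7.72 to 8.49 times the mean at low counts, levels under 1 CPM are the least certain.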
